A study of Mus musculus with 2 samples.

Results

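The keratins and cornified epithelium genes described here are 78 mouse genes, chosen by name: all genes whose symbol is Krt or Sprr followed by a number, together with Krtdap, Cnfn, Tgm1, Tgm3, Ly6d, Ly6g6c, Ivl, Lor, Dsg3, Dsc3, Trp63, Serpinb1a and Defb1. They are 78 of the 22180 genes that the array values give. They comprise 53 keratins, 12 small proline-rich (Sprr) genes and 13 others. Liver RNA was compared between 1 array of E4bp4-LKO mice and 1 array of WT mice. E4bp4, gene symbol Nfil3, encodes a basic leucine zipper repressor. Both pools came from male mice fed a high-fat diet for 12 weeks from the age of 2 months, and each array received RNA pooled from several of them. The sources used here do not say how many mice a pool held, nor which promoter or cell type lies behind the E4bp4-LKO genotype.

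With 1 array per genotype there are no replicates, so every value below describes these 2 arrays and none has a standard error or a test. The names of some genes, Krt4, Krt13, Krtdap, Serpinb1a, Sprr1a and Ly6d among them, entered the list after their differences on these arrays were known. The values of the members are therefore a description. Values are log2 intensities, on which a difference of 1 is a 2-fold difference, and differences are E4bp4-LKO minus WT. Each gene's mean over both arrays was compared with a floor of 4.20, which is the median of these means, to say whether the gene is above the floor. In pooled tissue, fewer cells of a type and less RNA per cell cannot be told apart.

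Keratins are the intermediate filament proteins of epithelia. They assemble as pairs of a type I and a type II chain, and the pair marks the kind of epithelium: Krt8 with Krt18 in hepatocytes, Krt7 and Krt19 with them in bile ducts, Krt5 with Krt14 in the basal layer of stratified epithelia, Krt1 with Krt10 in the upper epidermis, and Krt4 with Krt13 in the upper layers of the oesophagus and other moist linings. In terminally differentiating squamous cells, transglutaminases crosslink precursors such as loricrin, involucrin and the Sprr proteins into the cornified envelope.

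The labelled tissue was checked against its markers: 10 of 10 measured hepatocyte genes lay above the floor on both arrays, between 8.66 and 12.77 on each, with Alb at 12.77 on both. Nfil3, the targeted gene, was at 4.47 on the E4bp4-LKO array and 5.94 on the WT array. Trp63 and the basal keratins were below the floor on both. Trp63, the factor that specifies stratified epithelium, was at 4.05 on the E4bp4-LKO array and 3.79 on the WT array, Krt14 at 3.14 (E4bp4-LKO) and 2.95 (WT), and Krt15 at 3.17 (E4bp4-LKO) and 2.96 (WT). Of the 78 members, 58 were not above the floor, and 57 of these differed by less than 1.5-fold. The exception was Lor.

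Of the 20 members with a mean above the floor, 8 were higher on the E4bp4-LKO array by 1.5-fold or more, against 1.51% of the 11090 genes above the floor, and 4 were lower by as much, against 2.06%. At 2-fold the counts were 6 members higher, against 0.388% of the genes, and 2 lower, against 0.406%. The 8 were Krt4, Krt13, Krtdap, Serpinb1a, Cnfn, Defb1, Tgm3 and Ly6g6c, and the 4 were Sprr1a, Ly6d, Sprr2b and Krt23. Since these differences chose part of the list, nothing is read from the excess over the background. On the WT array, Krt4, Krt13, Krtdap and Serpinb1a were below the floor, so they passed it through the E4bp4-LKO array alone and the size of their differences is uncertain. Over all 78 members the median difference was 0.037, beside -0.011 over all genes. Over the 20 above the floor it was 0.32, beside -0.023 over all genes above it. Of the 20, 5 were above the floor on the E4bp4-LKO array alone. With the floor raised to the 75th percentile the median was -1.19, but only Krt8, Krt18, Ly6d and Sprr1a then remained.

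**Figure D1:**
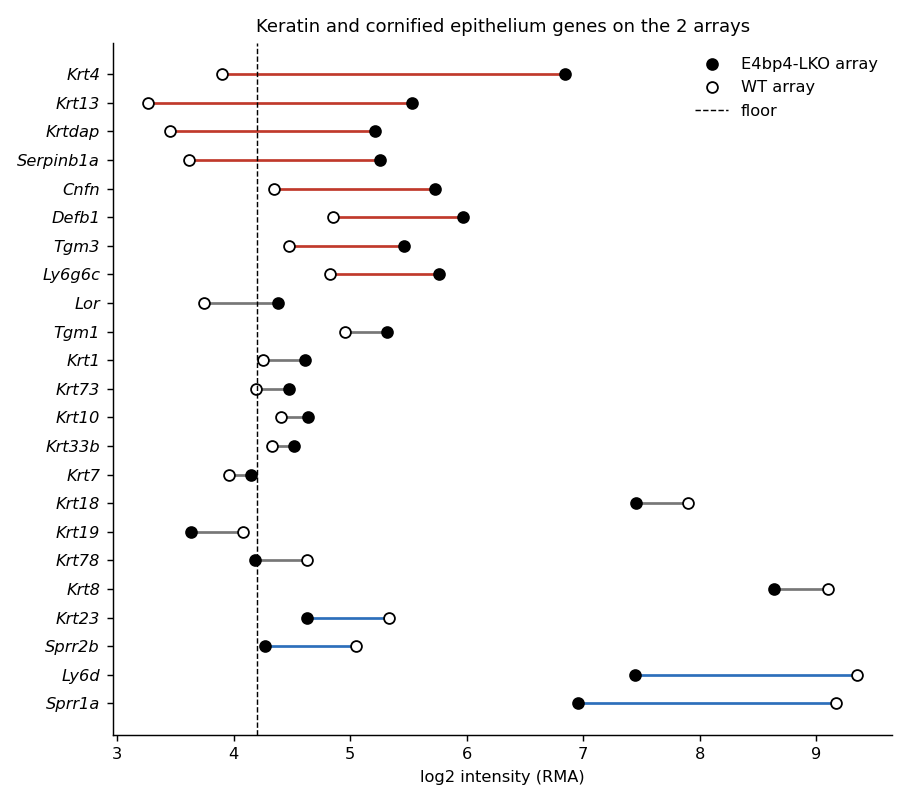
Log2 intensity of the 20 members above the floor, and of Krt7, Krt19 and Lor, on the E4bp4-LKO array (filled points) and the WT array (open points), ordered by their difference. Red and blue lines mark members above the floor that were at least 1.5-fold higher or lower on the E4bp4-LKO array, and the dashed line is the floor at 4.20.

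The pair of mucosal keratins showed the largest differences among the members. Krt4, the type II chain of moist stratified linings, was at 6.85 on the E4bp4-LKO array and 3.90 on the WT array, a difference of 2.95 or 7.72-fold. Krt13, its type I partner, was at 5.53 on the E4bp4-LKO array and 3.26 on the WT array, a difference of 2.26 or 4.81-fold. Both chains of the pair were thus above the floor in E4bp4-LKO liver and below it in WT liver. Both folds are taken against a WT value below the floor, so they have no firm size. Of the other keratins placed with this pair, Krt78 was at 4.18 on the E4bp4-LKO array and 4.63 on the WT array and Krt76 was below the floor on both, so they did not share its direction.

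No other keratin partners differed in this way. The epidermal pair differed by 0.36 (Krt1, 4.61 on the E4bp4-LKO array and 4.25 on the WT array) and 0.23 (Krt10, 4.64 on the E4bp4-LKO array and 4.41 on the WT array), both under 1.5-fold. The keratins of stressed and proliferating epidermis, Krt6a, Krt6b, Krt16 and Krt17, lay between 2.35 and 2.86 on the E4bp4-LKO array and between 2.37 and 3.01 on the WT array, below the floor throughout. Of the 23 hair and root sheath keratins, Krt33b and Krt73 were above the floor, and the 23 differed by between -0.47 and 0.32. Krt5 is not analysed here, because its probe set names a further keratin gene.

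The hepatocyte keratins were both lower on the E4bp4-LKO array. Krt8, the type II keratin of hepatocytes, was at 8.64 on the E4bp4-LKO array and 9.10 on the WT array (-0.46, 1.38-fold lower). Krt18, its partner, was at 7.45 on the E4bp4-LKO array and 7.90 on the WT array (-0.44, 1.36-fold lower). The difference was alike in both chains and stayed under 1.5-fold. Of all genes above the floor, 3.69% were at least as low as Krt8 by their difference and 4.23% at least as low as Krt18. The Krt18 value averages 2 probe sets, which differed by -0.47 and -0.42. Hepatocyte markers did not share this direction as a list: the 10 had a median difference of 0.10 and ranged from -0.035 to 0.30.

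The bile duct keratins were dim. Krt19 was at 3.63 on the E4bp4-LKO array and 4.08 on the WT array, and Krt7 at 4.15 (E4bp4-LKO) and 3.96 (WT), so both lay below the floor on each array and differed in opposite directions (-0.44 and 0.19). The median difference of Krt8, Krt18, Krt7 and Krt19 was -0.44. The 70 squamous genes, which are the members without the 6 simple epithelial keratins, Serpinb1a and Defb1, had a median of 0.053, and the 15 of them above the floor one of 0.36 with a range from -2.22 to 2.95. The squamous genes therefore had no common direction to set against the liver keratins. Cholangiocyte markers that are not members gave a median of 0.069 over 13 measured genes, with none of the 8 above the floor at 1.5-fold. Epcam was at 4.83 on the E4bp4-LKO array and 4.52 on the WT array, and Sox9 at 6.02 (E4bp4-LKO) and 6.10 (WT). Among the other simple keratins, Krt23, a type I keratin known to be induced in stressed mouse liver, was at 4.63 on the E4bp4-LKO array and 5.34 on the WT array (-0.70, 1.63-fold lower). Krt20, a keratin of gut and urothelium, was below the floor on both.

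**Figure D2:**
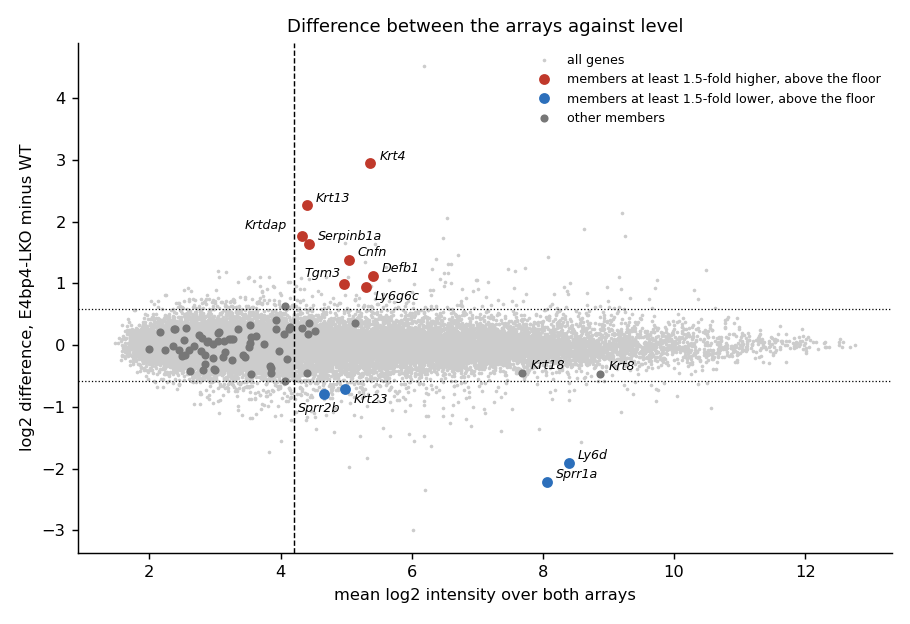
Difference between the arrays (E4bp4-LKO minus WT, log2) against the mean log2 intensity over both, for all 22180 genes (grey) and the 78 members (coloured). Dotted lines mark 1.5-fold and the dashed line the floor; Krt8 and Krt18 lie at high level just inside the 1.5-fold line, while Sprr1a and Ly6d stand below most genes of their level.

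Keratin genes lie in dense clusters, and the keratins next to Krt4 and Krt13 differed by less than 1.5-fold. The members of the type II cluster span 684 kb of chromosome 15 (GRCm38.p6, 101348315 to 102032026) with 26 measured members, Krt18 included, and those of the type I cluster span 1037 kb of chromosome 11 (99232761 to 100269951) with 27. Apart from Krt4 and Krt13, the 51 other keratins had a median difference of -0.077 and ranged from -0.70 to 0.42. Krt76 and Krt79, the measured keratins on either side of Krt4 (101918535 to 101924735), differed by -0.16 and -0.58. Krt36 and Krt15, on either side of Krt13 (100117327 to 100121566), differed by 0.32 and 0.21. These 4 neighbours were not above the floor, where RMA compresses differences. The 4 measured keratins that follow Krt4 along chromosome 15, Krt79, Krt78, Krt8 and Krt18, were each lower on the E4bp4-LKO array, by differences between -0.58 and -0.44. This run was noticed after the values were seen.

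**Figure D3:**
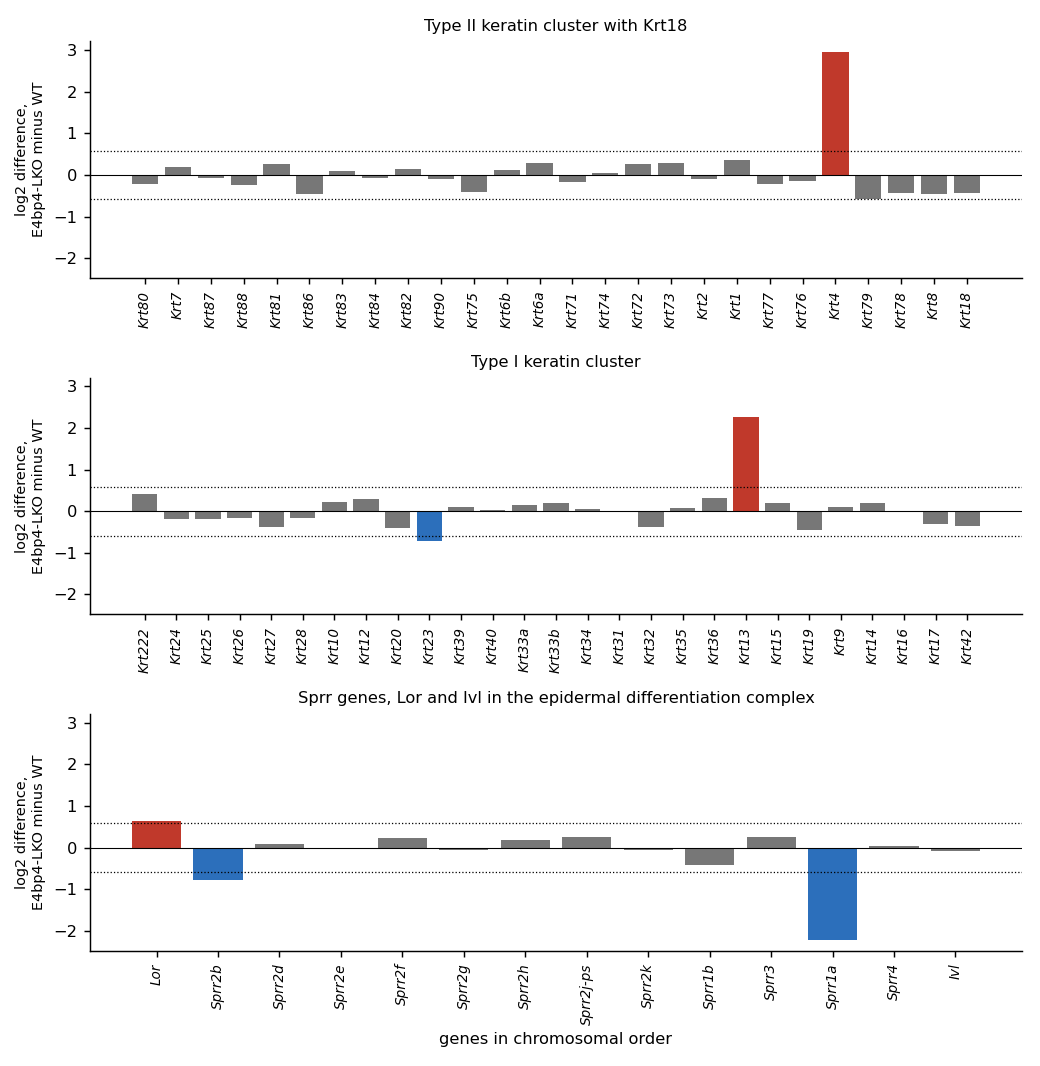
Difference between the arrays (E4bp4-LKO minus WT, log2) of the members in the 2 keratin clusters and of the Sprr genes, Lor and Ivl, each in chromosomal order. Bars past the dotted 1.5-fold lines are red (higher) or blue (lower); Lor passes the line but is not above the floor, Krt4 and Krt13 are the red bars of the keratin clusters and Krt23 the blue one.

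Envelope precursors split in direction. Krtdap, a secreted peptide of differentiating keratinocytes, was at 5.22 on the E4bp4-LKO array and 3.45 on the WT array (1.76, 3.4-fold). Cnfn, cornifelin, an envelope component, was at 5.73 on the E4bp4-LKO array and 4.35 on the WT array (1.38, 2.61-fold) and lay above the floor on both. Lor, loricrin, the main protein of the epidermal envelope, was at 4.38 on the E4bp4-LKO array and 3.74 on the WT array (0.63, 1.55-fold), with a mean below the floor. Ivl, involucrin, was at 3.94 (E4bp4-LKO) and 4.02 (WT). Krtdap lies on chromosome 7 beside Dmkn and Sbsn, which encode other secreted proteins of stratified epithelium. Dmkn was at 4.61 on the E4bp4-LKO array and 3.60 on the WT array (1.02), and Sbsn at 4.20 (E4bp4-LKO) and 3.97 (WT), a difference of 0.23; both means lay below the floor, and these neighbours were picked after their values were seen.

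The Sprr genes above the floor were lower on the E4bp4-LKO array. Sprr1a, an envelope precursor that is also induced in injured nerve and stressed heart muscle, was at 6.96 on the E4bp4-LKO array and 9.17 on the WT array (-2.22, 4.65-fold lower). It was the member with the largest negative difference and ranked 3 from the bottom of the 11090 genes. Sprr2b, of the same family, was at 4.26 on the E4bp4-LKO array and 5.05 on the WT array (-0.78, 1.72-fold lower). The other 10 Sprr genes were not above the floor and differed by between -0.42 and 0.26. Sprr1b and Sprr3, of the same complex on chromosome 3, were among them, at 2.41 and 2.52 on the E4bp4-LKO array and 2.83 and 2.26 on the WT array. Sprr2 genes are near-identical in sequence, so the value of Sprr2b may hold signal of its relatives. A further probe set, which names Sprr2b together with Sprr2a1, Sprr2a2 and Sprr2a3, was at 5.49 on the E4bp4-LKO array and 5.52 on the WT array, a difference of -0.036 that goes against the -0.78 of Sprr2b.

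Of the crosslinking enzymes, Tgm3 passed 1.5-fold and Tgm1 did not. Tgm3, the transglutaminase of epidermis and hair, was at 5.47 on the E4bp4-LKO array and 4.48 on the WT array (0.99, 1.98-fold). Tgm1, the membrane-bound keratinocyte enzyme, was at 5.32 (E4bp4-LKO) and 4.95 (WT), a difference of 0.37 or 1.29-fold. Tgm2, the tissue transglutaminase that crosslinks keratins in the hepatocyte inclusions called Mallory-Denk bodies and which is no member, was at 8.35 on the E4bp4-LKO array and 8.97 on the WT array (-0.62, 1.54-fold lower). Tgm3 and Tgm2 thus differed in opposite directions.

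Surface genes of the Ly6 family also split. Ly6d, a membrane-anchored protein of keratinocytes and of early B lineage cells, was at 7.44 on the E4bp4-LKO array and 9.35 on the WT array (-1.91, 3.75-fold lower), rank 5 from the bottom. Ly6g6c, which lies among the immune genes of chromosome 17, was at 5.77 on the E4bp4-LKO array and 4.82 on the WT array (0.94, 1.92-fold). None of the 5 other Ly6 family genes above the floor reached 1.5-fold. Of these, Lynx1 was at 4.94 on the E4bp4-LKO array and 5.45 on the WT array, and Ly6g2 at 9.62 (E4bp4-LKO) and 9.11 (WT). The squamous desmosome cadherins Dsg3 and Dsc3 were below the floor on both arrays, between 2.96 and 3.08.

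The remaining members are expressed well beyond squamous epithelium. Serpinb1a, an inhibitor of neutrophil proteases, was at 5.26 on the E4bp4-LKO array and 3.62 on the WT array (1.64, 3.12-fold). Defb1, an antimicrobial defensin of epithelia, was at 5.97 on the E4bp4-LKO array and 4.85 on the WT array (1.12, 2.18-fold). Of the 24 other clade B serpins measured, 5 were above the floor, none of them at 1.5-fold. Serpinb6a was the farthest from 0 of those 5, at 4.78 on the E4bp4-LKO array and 4.53 on the WT array. Of the 19 clade B serpins below the floor, 3 were higher by 1.5-fold or more and none lower by as much. That is a share of 15.8% higher, beside 1.15% higher and 1.23% lower over all genes below the floor. Differences of genes this dim are uncertain.

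The upstream sequences of a pair of genes from each direction are shown because they had the largest differences among the members with an entry in the RefSeq promoter table (GRCm38.p6). Each run is the 250 bases before the annotated start, 5′ to 3′ on the gene's strand. Capitals mark TGANTCA (on both strands), TATAAA (the TATA box, on the gene's strand) and TTACGTAA or TTATGTAA (the D-box that E4BP4 binds, on both strands). TGANTCA accepts any base at N and is looser than the AP-1 element, which is TGAGTCA or TGACTCA. Krt13 (chr11:100121567-100121816, minus strand) and Krtdap (chr7:30787655-30787904, plus strand) were higher on the E4bp4-LKO array, and Sprr1a (chr3:92485882-92486131, minus strand) and Sprr2b (chr3:92316455-92316704, plus strand) were lower.
Krt13: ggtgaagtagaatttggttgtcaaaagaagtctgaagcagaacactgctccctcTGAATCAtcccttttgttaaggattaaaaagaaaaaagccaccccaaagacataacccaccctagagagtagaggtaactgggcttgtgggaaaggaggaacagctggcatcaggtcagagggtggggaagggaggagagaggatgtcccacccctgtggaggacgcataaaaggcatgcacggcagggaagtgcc
Krtdap: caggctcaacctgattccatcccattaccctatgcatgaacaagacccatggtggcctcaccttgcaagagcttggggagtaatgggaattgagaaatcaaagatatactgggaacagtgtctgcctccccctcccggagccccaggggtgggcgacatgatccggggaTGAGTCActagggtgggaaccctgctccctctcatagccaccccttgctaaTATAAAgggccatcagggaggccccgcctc
Sprr1a: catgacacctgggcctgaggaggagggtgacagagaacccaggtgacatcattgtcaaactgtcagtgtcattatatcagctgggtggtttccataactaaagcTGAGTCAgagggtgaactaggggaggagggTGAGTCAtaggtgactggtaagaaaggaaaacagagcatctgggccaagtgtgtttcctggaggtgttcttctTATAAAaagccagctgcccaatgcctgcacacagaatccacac
Sprr2b: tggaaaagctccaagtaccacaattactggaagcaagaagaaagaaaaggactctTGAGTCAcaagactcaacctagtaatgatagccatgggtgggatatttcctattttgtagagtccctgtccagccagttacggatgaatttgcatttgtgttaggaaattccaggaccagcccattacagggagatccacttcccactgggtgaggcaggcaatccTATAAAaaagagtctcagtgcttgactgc

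The TGANTCA pattern was present in each of these windows, at 196 bases before the start in Krt13 and 81 in Krtdap. The Krt13 match reads TGAATCA, which is not the AP-1 element, and the Krtdap match reads TGAGTCA. Sprr1a held 2 matches, at 146 and 116 bases before the start, and Sprr2b 1 at 195 bases, all reading TGAGTCA. Over the 52 members with an entry, 12 windows (23.1%) held TGANTCA with any base at N, against 6.75% of all 32851 promoter windows of that length. The TATA box was found in 29 of the 52 (55.8%), against 7.59% of all windows. The D-box letters were in none of the 52 windows and in 0.931% of all. The 32851 windows hold every promoter entry, while each member has 1 window, that nearest its gene start, so the shares use unlike units. For some members that window lay far from the gene start, 24546 bases away for Tgm3. Many members are paralogs with related promoters, so the 52 windows are not independent. Apart from Krt13 and Krtdap, the member windows with TGANTCA were those of Sprr genes, Lor and Ivl. TGANTCA was in 2 of 5 windows of higher members and 2 of 3 of lower members, which are too few to compare. Of the 2 higher members with TGANTCA, only Krtdap had the AP-1 element, while Sprr1a and Sprr2b both had it. A part of this element in the differences was not tested.

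Genes that work with the members but are not among them did not follow a single direction. Of 44 other cornified envelope genes measured, 7 were above the floor and none of these differed by 1.5-fold; the median of the 44 was 0.088, beside -0.011 for all genes. Periplakin (Ppl), a plakin of the envelope and of liver, was at 5.98 on the E4bp4-LKO array and 6.35 on the WT array. Filaggrin (Flg) was at 4.08 on the E4bp4-LKO array and 3.94 on the WT array, and envoplakin (Evpl) was below the floor on both. Of the 37 below the floor, 5 were higher by 1.5-fold or more and none lower by as much, a share of 13.5% higher beside 1.15% higher and 1.23% lower over all genes below the floor. Values this dim have uncertain differences.

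The desmosome genes outside the list, which anchor keratin filaments at cell contacts, had a median of 0.020 over 13 genes. Desmoplakin (Dsp) was at 7.68 on the E4bp4-LKO array and 7.94 on the WT array, and plakoglobin (Jup) at 6.87 (E4bp4-LKO) and 7.08 (WT). The 16 squamous transcription factors measured had a median of -0.024, and 3 were above the floor. Klf4, a factor of the skin barrier, was at 4.62 on the E4bp4-LKO array and 3.88 on the WT array (0.74, 1.67-fold), and Grhl3 at 4.44 (E4bp4-LKO) and 3.98 (WT), a difference of 0.46. Klf4 and Grhl3 passed the floor through the E4bp4-LKO array alone, so the size of their differences is uncertain. Zfp750 was at 7.10 (E4bp4-LKO) and 7.04 (WT). Other intermediate filament genes and plakins above the floor were 8 in number, each lower on the E4bp4-LKO array, by differences between -0.58 and -0.030. None of them reached 1.5-fold. Of all 11090 genes above the floor, 6045 were lower on that array, and the median was -0.023. Desmin (Des), the filament of muscle and stellate cells, was at 5.78 on the E4bp4-LKO array and 6.36 on the WT array, and vimentin (Vim) at 7.25 (E4bp4-LKO) and 7.47 (WT).

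Markers of other epithelia that could lie beside the liver were mostly below the floor. Of 24 oesophagus and forestomach genes measured, 4 were above the floor, and the median level was 2.80 on the E4bp4-LKO array and 2.81 on the WT array. Among those 4, stratifin (Sfn) was at 5.15 on the E4bp4-LKO array and 5.78 on the WT array (-0.62, 1.54-fold lower). Gjb2, which hepatocytes also express, was at 9.98 (E4bp4-LKO) and 10.01 (WT). Differences of the opposite sign were seen for Mal, at 4.34 (E4bp4-LKO) and 4.13 (WT), and Spink5, at 4.33 (E4bp4-LKO) and 4.30 (WT). Of the 20 genes of this list below the floor, 1 was higher by 1.5-fold or more and none lower by as much. That gene, Serpinb3a, was at 2.78 (E4bp4-LKO) and 2.10 (WT), too dim for a certain difference. The median level of glandular gut genes was 3.51 (E4bp4-LKO) and 3.52 (WT), that of urothelial genes 3.78 (E4bp4-LKO) and 3.96 (WT), and that of exocrine gland genes 3.48 (E4bp4-LKO) and 3.62 (WT). In none of these 3 lists did a gene above the floor reach 1.5-fold. Of 10 skeletal muscle genes above the floor, 6 were lower on the E4bp4-LKO array by 1.5-fold or more, against 2.06% of all genes above the floor. The muscle list was chosen with earlier results of these data known, so nothing is read from that excess. The median level of the 12 measured was 4.35 on the E4bp4-LKO array and 5.36 on the WT array, and Myh2 was at 4.41 (E4bp4-LKO) and 6.24 (WT). The part of such other tissue in the members' differences was not tested.

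**Figure D4:**
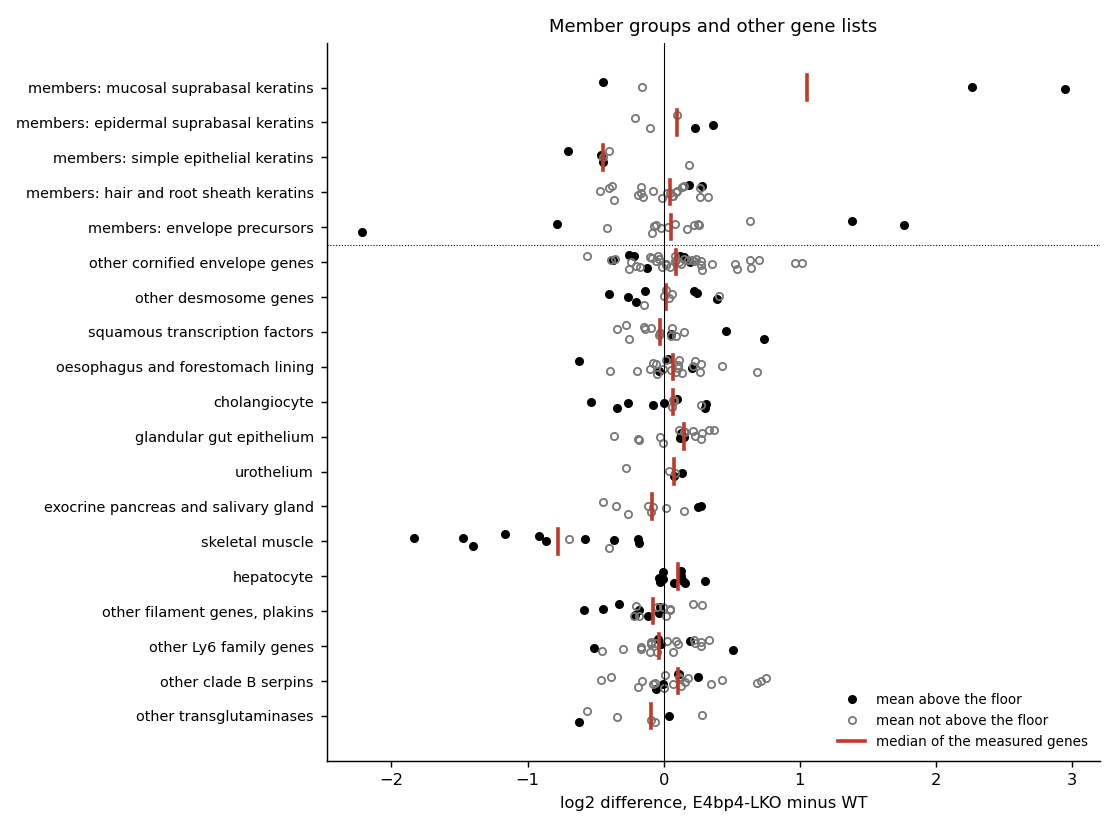
Difference between the arrays (E4bp4-LKO minus WT, log2) of each measured gene in 5 groups of members (above the dotted line) and in the other gene lists; filled points are genes with a mean above the floor, open points those without, and red bars the median of the measured genes. The mucosal keratins spread to 2.95 on the positive side, envelope precursors lie on both sides, and the points of the muscle list lie on the negative side.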

How the data were processed

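Pooled liver RNA of each genotype was hybridised to 1 Affymetrix whole-transcript mouse array, from 400 ng of RNA per the labels' protocols. The authors deposited log2 intensities per probe set. The submitters' processing notes list RMA (background correction, quantile normalisation and probe summary, which compresses dim differences) and R 3.4.0. Scanner files and detection calls were not used here. Array medians were 3.75 (E4bp4-LKO) and 3.74 (WT).

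Of 41345 probe sets, the 23521 with exactly 1 symbol in the platform annotation were averaged per gene (22180 genes); 77 of the 78 members have 1 probe set. All 78 members matched the RefSeq gene table (GRCm38.p6). The floor, the 1.5-fold threshold and the counts were computed with pandas 2.3.3. The code was run on simulated data with added differences well past the threshold and little noise. That run checks the code and not how reliable the calls are. Every member may be named; of other lists, up to 3 genes above the floor with the largest difference and the best known ones, with exceptions stated. The members and lists were chosen with earlier results of these data known. Alternatives were the floor, the probe set rule, centring, removal of the intensity trend (loess) and a 2-fold threshold.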

Additional observations from a re-analysis of the deposited data

How the results depend on the processing

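No paired analysis was possible because each genotype has 1 array. The 12 members past 1.5-fold stayed past it in the same direction with each array centred on its median and with the intensity trend removed. Differences were recomputed singly for these 12 and the 4 liver keratins, and none of the 16 moved by more than 0.033 on the log2 scale. Centring moves every difference by the same amount, so this stability says little about any single gene. The choice of the brightest probe set could change Krt18 alone, since the other members have 1 probe set. The floor mattered more. With a floor passed on both arrays, 4 members rather than 8 were at least 1.5-fold higher. With a floor at the 75th percentile, 0 were higher and 2 lower. The median difference of the members was then -1.19 and that of the squamous genes -2.06. That floor left only Krt8, Krt18, Ly6d and Sprr1a, and of the squamous genes only Ly6d and Sprr1a, so both medians rest on few genes. These changes follow from which dim genes a floor leaves out. Of the higher members, the floor passed on both arrays left out Krt4, Krt13, Krtdap and Serpinb1a, whose WT values lay below it. The floor at the 75th percentile left out all 8. With no floor the medians of the members and of the squamous genes were 0.037 and 0.053, with 9 members higher and 4 lower. The share of all genes past 1.5-fold was not computed under these other floors, so these counts have no background beside them. At 2-fold, 6 members were higher and 2 lower. Without Serpinb1a and Defb1, an alternative chosen after seeing the data, 6 were higher and 4 lower. The precision is limited by 1 array per genotype. The E4bp4-LKO minus WT differences of a gene's 2 probe sets had a within-gene standard deviation of 0.22 over 555 genes. Both probe sets were read on the same 2 arrays, so this value holds no variation between mice, pools or arrays.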

Other observations

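Probe sets that name several genes were left out of the values above. Of these, 7 name at least 1 keratin or Sprr gene. They lay between 2.25 and 5.49 on the E4bp4-LKO array and between 1.89 and 5.52 on the WT array, and differed by between -0.55 and 0.36, so none reached 1.5-fold in either direction.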
